A study of Homo sapiens with 4 samples.

Results

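AK4 was knocked down in CL1-5, a human lung adenocarcinoma cell line known as an invasive subline of CL1-0, and its transcriptome was compared with that of CL1-5 cells carrying a non-silencing shRNA. The comparison took 2 of the 4 arrays of the study, 1 with AK4 shRNA vector and 1 with non-silencing shRNA vector. Both cultures were stably transduced and selected with puromycin, so they share the transduction and the drug. The other 2 arrays hold CL1-0 with a control vector and CL1-0 labelled AK4 vector, and are used only for values set side by side. The shRNA sequence, the number of shRNAs tried and whether a culture was 1 clone are unknown from the sources used here. RNA was read on Affymetrix HG-U133 Plus 2.0 arrays, on which each gene is represented by probe sets, small groups of oligonucleotides. All 41091 probe sets with a single gene symbol, of 54675 on the array, were read for 19775 genes, each through 1 probe set. Signals under a floor of 6.93 were set to it, and the 15335 genes above it on 1 or both CL1-5 arrays are called measured. With 1 array per group there is no replicate error and no test. A gene is called higher or lower here where its signal differed by at least 2-fold, and ratios are given as log2 of the AK4 shRNA signal over the non-silencing signal.

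Adenylate kinases move a phosphate group between adenine nucleotides, turning pairs of ADP into ATP and AMP. AK4 is a mitochondrial matrix member of the family, known for weak enzyme activity and for rising under low oxygen. Of the 16 genes that differed by 2-fold here, 9 are members of lists for another system, the interferon response. In it, cytosolic sensors such as RIG-I and MDA5 detect double-stranded RNA and, through the adaptor MAVS, induce interferons and a first set of antiviral genes. Secreted interferons bind their receptors, and JAK kinases activate STAT proteins that act with IRF9 on a DNA element called the interferon-stimulated response element. Epithelial cells of the lung respond both to type I interferons and to interferon lambda.

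The arrays of the pair were alike in rank, with a Spearman correlation of 0.990 over their probe sets (a description, since probe sets are no replicates). The floor was passed by 63.4% of probe sets with non-silencing shRNA and by 62.4% with AK4 shRNA. The 3' to 5' ratio of the beta-actin control probe sets, a sign of RNA length, was 1.34 in the control and 1.61 in the knockdown, and that of GAPDH was 1.04 and 1.07. The part of this difference in the results was not tested. The middle of the distribution was narrow. The 5th and 95th percentiles of all log2 ratios lay at -0.34 and 0.36, and their median at -0.0016. Probe sets of the same gene scattered with a pooled SD of 0.22 on the log2 scale, a spread that true transcript differences add to and that says nothing about cultures.

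The labels call the cells type II alveolar, the surfactant-making cells of the lung. Of 13 listed markers of that type, 11 had a probe set and 8 were measured. SFTPC, which encodes surfactant protein C, had signals of 26.3 and 24.0 on the non-silencing and AK4 shRNA arrays. SFTPB had 22.4 and 23.7, and the lung factor NKX2-1 13.7 and 15.1. SFTPD, the phosphate carrier SLC34A2 and LAMP3 were under the floor on both arrays. The epithelial adhesion genes EPCAM and CDH1 were under the floor as well, while the simple-epithelium keratin KRT18 had 1681 and 1485. Of other cell types, the leukocyte marker PTPRC, the fibroblast markers LUM, COL3A1 and PDGFRA and the endothelial markers KDR and CDH5 were under the floor on both arrays. The other 3 of 6 fibroblast markers were measured, with ratios from -0.48 to -0.02, as were the other 3 of 5 endothelial markers, from -0.14 to 0.11. Of 6 leukocyte markers with a probe set, the 3 measured had ratios from -0.41 to -0.17, so no measured leukocyte marker was higher beside the interferon genes.

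AK4 itself was lower with AK4 shRNA at all 4 of its probe sets. The main probe set, 204348_s_at, had a signal of 1056 in the non-silencing control and 442 in the knockdown, so 41.9% of the signal was left and the log2 ratio was -1.25. The probe set 225342_at went from 568 to 301, with 53.1% left. For 204347_at the signals were 234 and 127, with 54.4% left, and for 230630_at 111 and 51.2, with 46.1% left. The labels and the array thus go the same way, and AK4 had the lowest main probe set ratio of the 15335 measured genes. In bulk RNA, fewer cells with AK4 and less AK4 RNA per cell cannot be told apart. The CL1-0 arrays, control vector then AK4 vector label, read 115 and 111 at the main probe set. AK4 was therefore not higher on the array labelled AK4 vector, but where these probe sets lie against the insert is unknown, so this does not check that label.

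None of the other measured adenylate kinases reached 1.5-fold. Of 9 listed family members, 6 had a probe set with a single symbol and all 6 were measured. AK3, the mitochondrial GTP:AMP kinase and a close relative of AK4, had 493 and 553 (log2 ratio 0.17). AK1, the major cytosolic enzyme, had 201 and 184 (-0.13). AK9, near the floor, had a ratio of 0.38. AK5 had a ratio of 0.10 and AK6 of -0.10, so AK4 was the only one of the 6 past 1.5-fold.

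**Figure D1:**
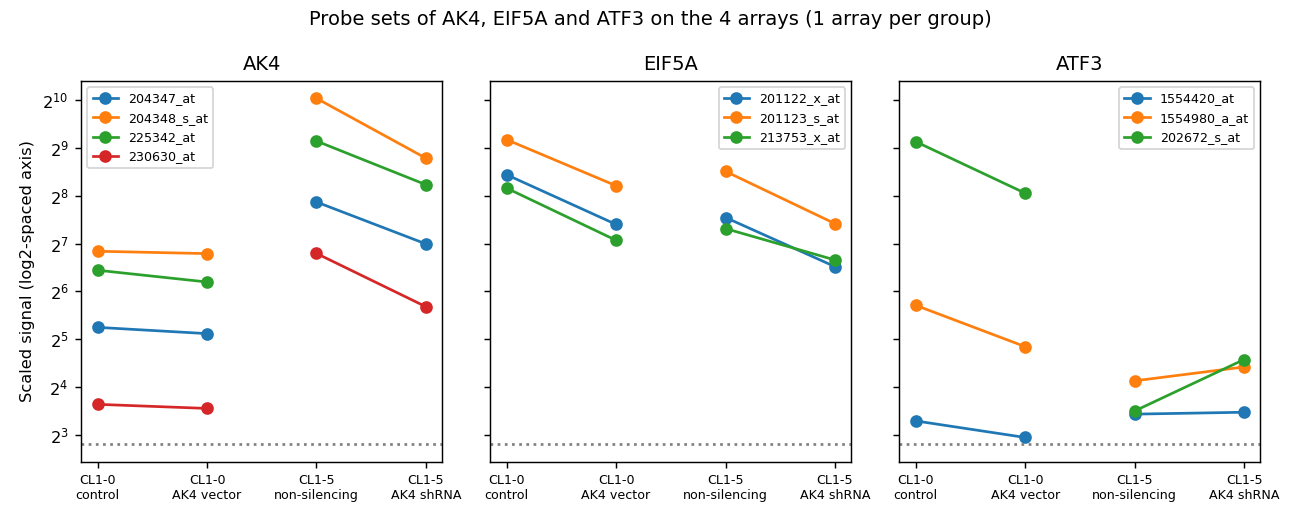
Scaled signal (vertical axis, log2-spaced) of every probe set of AK4, EIF5A and ATF3 on the 4 arrays, with 1 point per array, a line joining each pair and the floor dotted. All 4 AK4 and all 3 EIF5A probe sets are lower with AK4 shRNA in CL1-5, whereas 1 of the 3 ATF3 probe sets is 2-fold higher.

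Few genes differed by 2-fold at their main probe set, the single one each gene is read from. With AK4 shRNA 14 genes were at least 2-fold higher (0.0913% of measured genes) and 2 were at least 2-fold lower (0.013%), AK4 and EIF5A. This balance depends on reading 1 probe set per gene. Over all 29171 measured probe sets with a single symbol, 19 were 2-fold higher (0.0651%) and 25 were 2-fold lower (0.0857%). Of the higher ones 10 were of interferon list genes, and of the lower ones 0 were. Of the 14 higher genes, 9 belong to the interferon lists used here, which were chosen with earlier results of these data known. All 14 were above the floor on both CL1-5 arrays. At 1.5-fold, 133 genes were higher (0.867% of measured genes), of which 22 (16.5%) were in the interferon lists. Of the 80 genes 1.5-fold lower (0.522%), 0 were. At shares this small, a short list with 0 genes past 1.5-fold does not stand apart from all measured genes.

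The gene with the highest ratio was RSAD2, which encodes viperin, an enzyme that makes a chain-terminating nucleotide against viral polymerases. Its signal was 51.3 in the control and 134 in the knockdown, a 2.62-fold difference. A second RSAD2 probe set had 41.6 and 115. CMPK2, its neighbour in the genome and a mitochondrial nucleotide kinase, had 36.8 and 82.8 (2.25-fold). The IFIT genes encode proteins that bind foreign RNA ends. IFIT2 had 145 and 366 (2.52-fold) and IFIT3 had 329 and 677 (2.06-fold). Both had another probe set that was higher as well, at log2 ratios of 0.55 and 0.95. These are the well-measured members of the group, with every probe set above the floor on both arrays going up.

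Sensor and effector genes of lower signal followed. IFIH1, which encodes the long-RNA sensor MDA5, had 47.5 and 105 (2.21-fold). Averaged over all its probe sets, its ratio was 0.38, but the others were under the floor on both arrays and enter as 0. IFI44, an interferon-induced cytoplasmic protein, had 28.2 and 65.5 (2.32-fold), and 0.43 on the log2 scale without probe sets that may match several transcripts. That 0.43 comes from a probe set with 4.66 and 9.32, whose non-silencing signal was set to the floor. OAS2, an oligoadenylate synthetase that makes the signal for RNA decay, had 17.8 and 38.2 (2.15-fold), with 13.7 and 20.8 at its second probe set. IFITM1, a membrane protein that blocks viral entry, had 18.8 and 38.4 (2.04-fold), read by a probe set shared between transcripts. Its close relatives IFITM2 and IFITM3 had ratios of 0.21 and 0.18. GBP3, a guanylate-binding GTPase, had 8.31 and 17.2, and its ratio was 0.04 with the floor at the 60th percentile of signals.

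Besides these 9, the 14 held 2 chemokine genes. CCL5, the chemokine RANTES that draws T cells, had 139 and 326 (2.35-fold), with 141 and 326 at a second probe set and 114 and 202 at the third. CXCL11, a ligand of CXCR3 that interferon induces, had 9.59 and 23.7 (2.48-fold), close to the floor. HIVEP1, a zinc finger factor that binds kB-like enhancers, had 9.41 and 22.0. ATF3, a stress-induced transcription factor of the ATF family, had 11.3 and 23.8. L1CAM, a neural adhesion molecule, had 20.1 and 41.3, but its other probe set went the other way, with 18.6 and 15.4. Averaged over all probe sets, HIVEP1 had a log2 ratio of 0.61, CXCL11 of 0.65, ATF3 of 0.47 and L1CAM of 0.38, all under 2-fold. The other probe set of HIVEP1 and that of CXCL11 were under the floor on both arrays and enter this mean as 0.

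**Figure D2:**
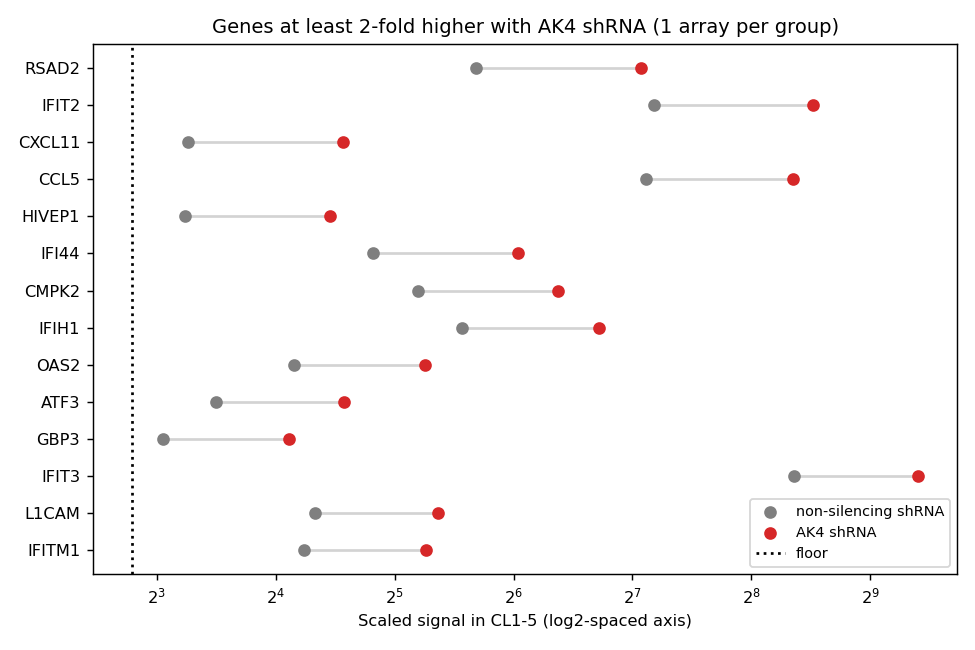
Scaled signal (horizontal axis, log2-spaced) of the 14 genes at least 2-fold higher with AK4 shRNA, grey for non-silencing and red for AK4 shRNA, 1 array each, with the floor dotted. IFIT3, IFIT2 and CCL5 lie far above the floor on both arrays, while GBP3, HIVEP1 and CXCL11 start close to it at 8.31, 9.41 and 9.59.

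Just under 2-fold stood further genes. IFNL2, an interferon lambda, had 11.8 and 23.3 (log2 ratio 0.98), and its near-identical relatives may share the probe set. IFIT1 had 389 and 755 (0.96). OASL, a relative of the oligoadenylate synthetases, had 151 and 289 (0.94). CXCL1, a chemokine for neutrophils, had 62.2 and 119 (0.93). HERC5, the ligase that attaches ISG15 to proteins, had 131 and 245 (0.91). COL15A1, a basement membrane collagen, had 7.21 and 13.2, and PAPLN, a matrix glycoprotein, had 22.3 and 40.5, or a log2 ratio of 0.45 with probe sets averaged. Apart from COL15A1 and IFNL2, these genes lay well above the floor on both arrays.

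Over all 7 interferon lists, 146 of 156 listed genes had a probe set, and 27 of these were under the floor on both arrays. Of the 119 measured, 97 had a ratio above 0, against 49.6% of all measured genes. The median was 0.25, where that of all genes was -0.0016. At least 2-fold higher were 9, 1.5-fold higher 22, and 1.5-fold lower 0. Where a listed gene had several probe sets above the floor, which was so for 56, all of them were higher for 27 and all lower for 7. The same counts over all 7193 such genes were 1352 and 1599.

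Sensors and adaptors came first in the pathway. Of 14 measured, 11 were above 0, 2 were past 1.5-fold and the median was 0.13. RIGI, the sensor of RNA with a triphosphate end, had 77.3 and 143 (0.89), and 0.48 when its probe sets were averaged. DHX58, the regulator LGP2, had 22.7 and 32.4 (0.51). IFI16, a DNA sensor, had 0.46 at its main probe set but 0.05 and -0.23 at the others. EIF2AK2, the RNA-activated kinase PKR, had 161 and 165 (0.03), and another probe set had 76.1 and 105 (0.46). MAVS had a ratio of 0.14. TRIM25, the ubiquitin ligase that acts on RIG-I, had 96.5 and 76.6 (-0.33). The RIG-I-like receptors IFIH1, RIGI and DHX58 thus had the highest ratios of the list.

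Interferon genes themselves were near or below the floor. Of 18 ligands with a probe set, 14 were under it on both arrays, IFNG and most IFNA genes among them. Besides IFNL2, IFNL1 had 10.5 and 15.5 (0.57). IFNB1 had 7.35 and 7.94 (0.11), at the floor. The ratio of IFNA17 was 0.39.

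Receptors and their kinases had a median of 0.03 over 9 measured genes, and 0 of 9 passed 1.5-fold. IFNAR2, a chain of the type I receptor, had 93.0 and 79.3 (-0.23), with -0.39 and 0.02 at its other probe sets. IFNAR1 had a ratio of -0.07, JAK2 of 0.31 (0.16 at another probe set) and TYK2 of -0.12. Among the transcription factors, 8 of 11 were above 0 with a median of 0.22, and none of the 11 passed 1.5-fold. IRF9, the DNA-binding part of the type I complex, had 131 and 153 (0.22). IRF7, which amplifies interferon transcription, had 46.8 and 56.0 (0.26), and IRF1 had 67.3 and 80.2 (0.25), with -0.12 at its second probe set. STAT3 had 313 and 391 (0.32) at its main probe set, while the others above the floor gave 0.03 and -0.25. NLRC5, the activator of MHC class I genes, had a ratio of 0.49, IRF3 of -0.05 and IRF8 of -0.29.

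The ISG15 and SOCS list had a median of 0.58 over 7 genes, the highest of the 35 lists, with 3 genes past 1.5-fold. ISG15, a ubiquitin-like modifier, had 670 and 1046 (0.64). SOCS3, a feedback inhibitor of JAK kinases, had 55.2 and 83.6 (0.60), and 0.12 when its probe sets were averaged. USP18, which removes ISG15 and dampens receptor signalling, had 26.3 and 39.2 (0.58). UBE2L6, the ISG15 conjugating enzyme, had a ratio of 0.29, and SOCS1 of -0.11. Averaging the probe sets of each gene gave the list a median of 0.29, below the 0.48 of the interferon ligands under that setting.

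Antiviral effectors were the largest list. Of 64 listed, 61 had a probe set and 54 were measured, with 45 above 0 and a median of 0.32. Past 2-fold were 8 of them and past 1.5-fold 16, all higher. Beyond those named above, LGALS3BP, a secreted lectin-binding protein, had 26.4 and 47.2 (0.84). BST2, or tetherin, which holds budding virus at the cell surface, had 8.92 and 15.8 (0.83). MX1, a GTPase that blocks viral nucleocapsids, had 24.6 and 39.0 (0.66). OAS1 had 18.5 and 29.4 (0.66) and OAS3 had 151 and 214 (0.50). PARP9 and the helicase-like DDX60 had ratios of 0.68 and 0.59. Without probe sets that may match several transcripts, OAS1 had 0.19 and PARP9 0.23. With the floor at the 60th percentile DDX60 had 0.03 and BST2 was no longer measured.

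Other effectors differed less or lay below 0. IFIT5 had 83.4 and 105 (0.33), IFITM2 had 482 and 557 (0.21) and IFITM3 had 879 and 998 (0.18). MX2 had a ratio of 0.09, GBP1 of 0.22 and GBP2 of -0.20. APOBEC3F, a cytidine deaminase that restricts retroviruses, had 18.1 and 13.2 (-0.46), the lowest main probe set of the 54, and -0.08 at its second probe set.

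Antigen presentation genes had small ratios that mostly lay above 0, in 17 of 20 measured, with a median of 0.23 and 0 past 1.5-fold. PSMB8 and PSMB9 encode catalytic subunits of the immunoproteasome. PSMB8 had 57.3 and 82.7 (0.53), and PSMB9 had a ratio of 0.49. The peptide-loading factor TAPBP had 0.49 at its main probe set but -0.22 and -0.13 at the others. The transporter TAP1 had 0.30. HLA-B had 1122 and 1334 (0.25) and B2M, the light chain of MHC class I, had 2140 and 2484 (0.21). At the other HLA-B probe sets the ratios were 0.14 and 0.07.

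**Figure D3:**
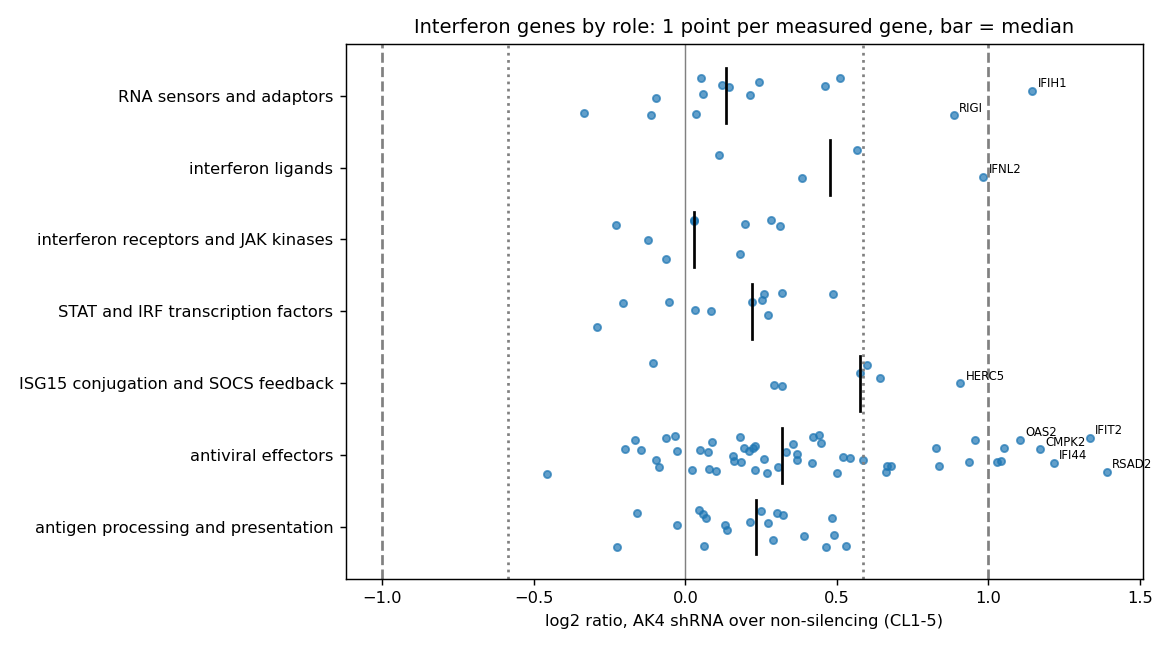
Log2 ratio of AK4 shRNA over non-silencing shRNA (horizontal axis) for each measured gene of the 7 interferon lists (rows), with the list median as a bar and 1.5-fold and 2-fold as dotted and dashed lines. Antiviral effectors reach furthest right, to 1.39 for RSAD2, whereas receptors and JAK kinases centre on 0.03.

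Chemokines and cytokines had ratios above 0 for 13 of 16 measured genes, with 2 past 2-fold, 5 past 1.5-fold and a median of 0.24. CXCL10, like CXCL11 a ligand of CXCR3, had 42.3 and 74.7 (0.82). IL6, an inflammatory cytokine, had 109 and 189 (0.79). CXCL8 had 942 and 1045 (0.15), and CXCL9 had 10.1 and 7.65 (-0.40). Of the CXCR3 ligands, CXCL10 and CXCL11 were therefore past 1.5-fold higher and CXCL9 was not. With probe sets averaged, the medians of the chemokine, antigen presentation and transcription factor lists were 0.14, 0.12 and 0.06.

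NF-kB is the transcription factor family that drives many of these cytokines. Of 19 measured subunits and regulators, 15 were above 0 and the median was 0.32, or 0.092 when the probe sets of each gene were averaged. HIVEP1 was the 1 member past 1.5-fold. TNFAIP3, the feedback inhibitor A20, had 28.6 and 42.4 (0.57), and NFKBIA, the inhibitor IkB-alpha, had 244 and 316 (0.37). REL, a subunit, and HIVEP2 both had 0.52.

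Within the AP-1 and ATF family, ATF3 stood nearly alone. Its main probe set, 202672_s_at, was 2.11-fold higher, but 1554980_a_at had 17.4 and 21.4 (0.29) and 1554420_at 10.8 and 11.1 (0.04). Of 17 AP-1 and ATF genes, 10 were above 0, with a median of 0.03, and only JDP2, a repressor of AP-1, also passed 1.5-fold, at 11.8 and 20.3 (0.79), or 0.28 with the highest floor. Immediate early genes had a median of 0.02 over 21 measured. KLF4, a zinc finger factor, had 144 and 245 (0.77, and 0.38 at another probe set), KLF10 had 581 and 855 (0.56), KLF5 had a ratio of -0.54 and the nuclear receptor NR4A3 of -0.42. Of 23 integrated stress response targets 0 passed 1.5-fold, and their median was 0.09, or -0.003 with probe sets averaged.

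**Figure D4:**
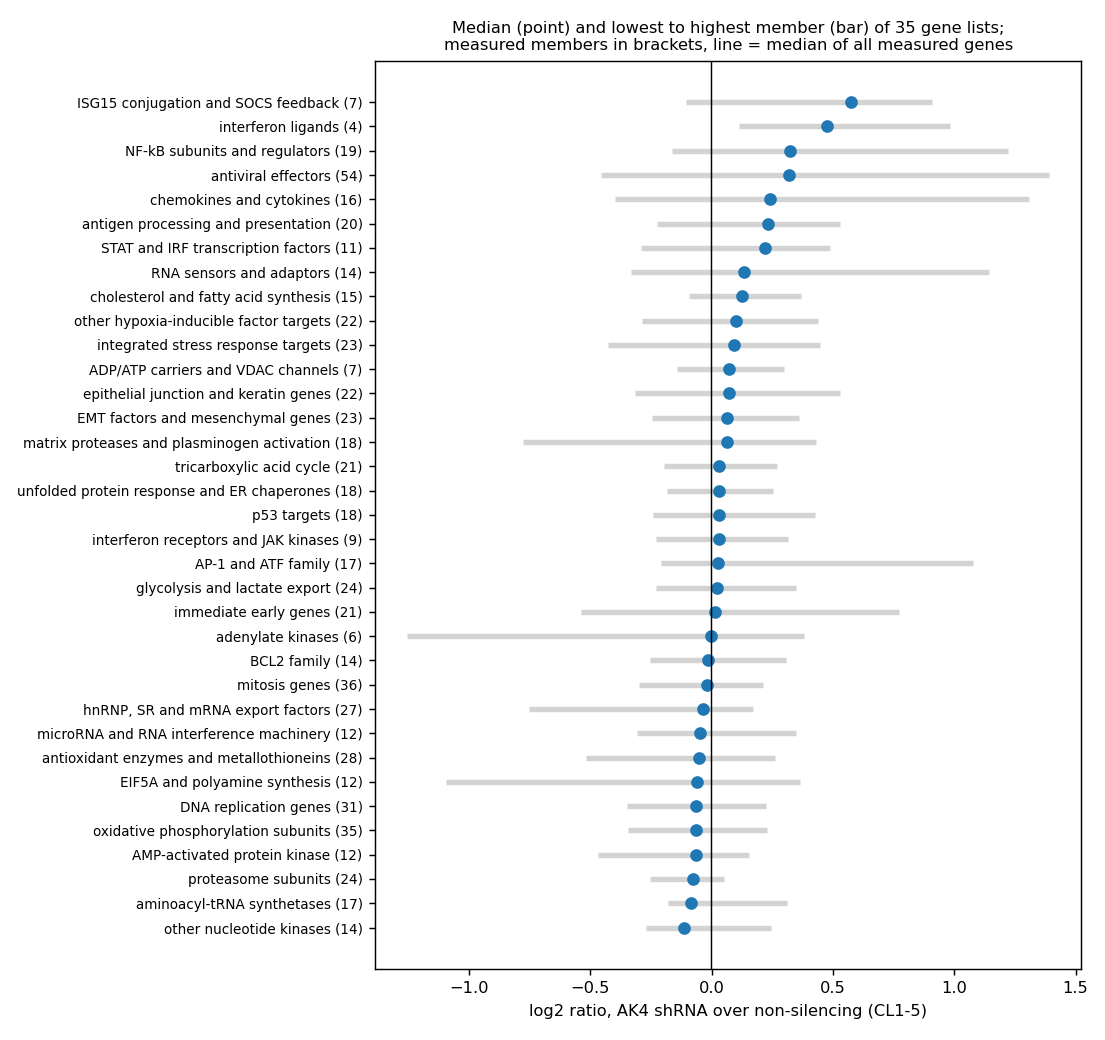
Median log2 ratio (point) and range from lowest to highest member (bar) of 35 gene lists, with the number of measured members in brackets and the median of all measured genes as a line. The ISG15 and SOCS list has the highest median, 0.58, and the list of other nucleotide kinases the lowest, -0.12. With probe sets averaged these are 0.29 and -0.05, and neither is at the end of the order.

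Since the interferon-stimulated response element is a known DNA signal, the promoters of the higher genes were searched for its core, GAAANNGAAA, on both strands. RefSeq promoter windows on GRCh38.p14 run from 250 bases before to 50 after an annotated start, 300 bases in all, and matches may overlap. For 10 of the 14 genes at least 2-fold higher the table had a window. A match was present for 6 of these 10, namely RSAD2, IFI44, IFIH1, GBP3, IFIT3 and IFITM1. Of all measured genes with a window, 454 of 12131 (3.74%) had one, and of all 35116 windows 3.57% did. The bases before the start are shown for 4 of the 6, 5' to 3' along the gene, because their matches lie wholly upstream. Capitals mark the match, which reads as the reverse complement where it lies on the other strand.
RSAD2, chr2:6877527-6877776, plus strand: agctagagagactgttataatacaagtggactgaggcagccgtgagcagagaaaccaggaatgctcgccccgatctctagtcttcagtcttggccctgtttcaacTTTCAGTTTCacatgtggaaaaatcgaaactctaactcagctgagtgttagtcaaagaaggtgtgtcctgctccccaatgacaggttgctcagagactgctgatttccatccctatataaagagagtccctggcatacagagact
IFI44, chr1:78649539-78649788, plus strand: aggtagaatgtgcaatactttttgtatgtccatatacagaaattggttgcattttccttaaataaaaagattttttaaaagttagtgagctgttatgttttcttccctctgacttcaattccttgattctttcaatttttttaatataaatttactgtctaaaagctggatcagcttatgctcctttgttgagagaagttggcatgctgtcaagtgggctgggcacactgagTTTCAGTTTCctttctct
IFIH1, chr2:162318685-162318934, minus strand: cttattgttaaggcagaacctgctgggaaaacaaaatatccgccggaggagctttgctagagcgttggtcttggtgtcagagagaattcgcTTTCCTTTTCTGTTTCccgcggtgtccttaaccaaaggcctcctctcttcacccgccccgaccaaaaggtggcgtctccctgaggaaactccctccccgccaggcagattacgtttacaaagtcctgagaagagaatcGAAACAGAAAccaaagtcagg
IFIT3, chr10:89332279-89332528, plus strand: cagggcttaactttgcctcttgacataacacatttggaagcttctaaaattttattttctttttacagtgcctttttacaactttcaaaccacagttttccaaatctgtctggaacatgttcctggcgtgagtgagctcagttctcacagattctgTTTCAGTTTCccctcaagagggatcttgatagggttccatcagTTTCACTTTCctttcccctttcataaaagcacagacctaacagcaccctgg

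In the RSAD2 window shown the match began at -145 relative to the start, and the window of its other annotated start had none. In that of IFI44 it began at -18. IFIH1 had 3 matches, of which those at -159 and -153 overlap and the third lay at -21. The IFIT3 window shown had matches at -94 and -51, and the window of its other annotated start had them at -156 and -122. IFITM1 had matches at -40 and -6. CXCL11, CMPK2, ATF3 and L1CAM had none in their windows, which says only that these letters are not there. A match is a description of the sequence and no measure of binding.

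Within the interferon lists a match was more frequent among the genes with larger ratios, a description with no test. Of list members past 1.5-fold, 15 of 19 with a window had a match (78.9%), and of the other measured members 33 of 74 (44.6%). Among genes past 1.5-fold outside the lists it was 9 of 77 (11.7%), CXCL10, SMARCA2 and PHLDB2 among them. Of genes 1.5-fold lower, 1 of 59 had one (1.69%). A kB element was searched as GGGANTTTCC in the same way. It was present for 4 of 96 genes past 1.5-fold higher (4.17%), against 0.775% of measured genes. These 4 were CXCL1, IL6, IFIH1 and RIGI.

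Several of the higher genes lie side by side. In the order of measured genes on chromosome 10, IFIT2, IFIT3, IFIT1 and IFIT5 follow each other with log2 ratios of 1.34, 1.04, 0.96 and 0.33. The nearest measured genes on either side were LIPA at 0.17 and PANK1 at -0.14. Genes that were not measured are left out of this order. CMPK2 and RSAD2 are adjacent, at 1.17 and 1.39. OAS1, OAS3 and OAS2 had 0.66, 0.50 and 1.11. The 3 measured genes on each side of the 14 higher genes gave 72 other genes, a set looked at after the values were seen. Of these, 63 were outside the interferon lists, with a median of -0.02. One was 1.5-fold higher, CXCL10, against 0.867% of all measured genes, and 3 were 1.5-fold lower, against 0.522%. These 3 were EDN1, the gene of endothelin 1, at -0.70, FIGN at -0.61 and LOC100506274 at -0.59, all with signals under 20 on both arrays.

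On the lower side, only AK4 and EIF5A passed 2-fold at their main probe set. EIF5A is the translation factor that carries hypusine, a modified lysine, and helps ribosomes through stalling sequences. Its main probe set, 201123_s_at, had 365 and 171 (-1.09). The other probe sets were lower as well, with 187 and 91.6 (-1.03) at 201122_x_at and 159 and 101 (-0.66) at 213753_x_at. All 3 probe sets of EIF5A are of the kinds that may match several transcripts. Its paralogue EIF5A2 had ratios of 0.01, 0.26 and 0.19 at its probe sets. EIF5A was also lower in CL1-0 labelled AK4 vector, at 297 against 579 with control vector for the main probe set.

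The 25 probe sets that were 2-fold lower belonged to 20 genes, of which 18 were not called because their main probe set differed less. These genes were looked at after their values were seen. UHMK1, a serine/threonine kinase with an RNA-binding motif, had 3 of 4 probe sets lower, with 434 and 182, 286 and 117, and 138 and 57.9 (log2 ratios of -1.25, -1.29 and -1.25). Its main probe set had 603 and 609 (0.01). ENC1, an actin-binding protein, had 85.0 and 27.1 (-1.65) at one probe set and -0.21 at the main one. TMPO, a lamina-associated protein, had 103 and 35.5 (-1.53) and -0.02. ZBTB38, a zinc finger protein that binds methylated DNA, had -1.36, -0.97 and -0.77 at 3 probe sets and -0.10 at the main one. Probe sets of these genes thus disagreed by more than 2-fold, and which transcripts each of them reads was not analysed here.

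RNA-handling factors were among the genes that followed. ALYREF, an mRNA export adaptor, had 281 and 166 (-0.76), and 191 and 117 at its second probe set. HNRNPL, a splicing regulator, had 138 and 86.1 (-0.68), and 71.6 and 41.5 at another. They were the 2 of 27 hnRNP, SR and export factors past 1.5-fold, against 0.522% of all measured genes, and the list's median was -0.03. HNRNPL was also lower in CL1-0 labelled AK4 vector, at 111 against 205 with control vector for the main probe set. The histone gene H4C11 had a ratio of -0.75, from a probe set that may match other histone genes.

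Most other low ratios came from dim genes. TULP1, a photoreceptor protein, had a ratio of -0.90 and only 6.98 in the knockdown, and CHGA, the granule protein chromogranin A, 18.9 and 10.8 (-0.80). SV2B, a synaptic vesicle protein, had 15.1 and 8.72. CTSH, a lysosomal protease, had 15.4 and 9.01 (-0.78). IRAG1, MARK2P21, FLJ30679 and C11orf96 had ratios from -0.76 to -0.75. Raising the floor to the 60th percentile left CHGA at -0.18 and took TULP1, SV2B, CTSH and IRAG1 under it on both arrays. Genes 1.5-fold lower had a median signal of 18.0 on their brighter array, those 1.5-fold higher 38.4 and all measured genes 54.6. Among the 5543 genes with at least 100 on the brighter array, 31 were 1.5-fold higher, 9 of them in the interferon lists, and 9 were 1.5-fold lower.

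Energy metabolism, in which AK4 acts, showed 0 genes past 1.5-fold at the main probe set besides AK4. Over all measured genes 0.867% were 1.5-fold higher and 0.522% lower, so few genes of such lists would pass at those shares. Over 9 lists, the 155 measured genes other than AK4 had 78 ratios above 0, a median of 0.0017 and a range from -0.47 to 0.44. Oxidative phosphorylation subunits were mostly just below 0, in 28 of 35, with a median of -0.06. This count moves with the scaling: 7 were above 0 here, 13 with no rescaling or quantile normalization and 12 with loess. NDUFS7 of complex I was lowest at -0.35 (-0.02 at another probe set) and SDHC of complex II highest at 0.23. Of the AMP-activated protein kinase list, CAMKK2, a kinase upstream of it, had 166 and 120 (-0.47) at its main probe set but 88.9 and 102 (0.20) at another. It has no settled direction here, and it sets the low end of the range above. The subunit PRKAB1 had -0.33, with -0.21 at its second probe set. Glycolysis genes had a median of 0.02 over 24, and the glucose transporter SLC2A3 had 0.35 at its main probe set and 0.002 and 0.04 at the others. Other targets of the hypoxia-inducible factor had 0.10 over 22, with VHL at 0.44 and ANKRD37 at -0.29. Cholesterol and fatty acid genes were above 0 in 13 of 15, with INSIG1 at 0.37. SCD had 0.34 and 0.20 at a pair of probe sets and -0.13 and -0.03 at the others. Other nucleotide kinases had a median of -0.12 over 14, or -0.05 with probe sets averaged, with TK1 at -0.27 and NME1 at -0.25.

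Protein synthesis and turnover genes leaned slightly down. Proteasome subunits were below 0 in 21 of 24 (median -0.08) and aminoacyl-tRNA synthetases in 15 of 17 (median -0.09), with 0 past 1.5-fold in either list. These medians are smaller than the scatter of 0.22 between probe sets of 1 gene. RNA interference genes, whose machinery an shRNA uses, had a median of -0.05 over 12, with AGO2 at -0.31. TNRC6B had ratios from -0.37 to 0.57 over its 7 probe sets. AGO1 had 0.21 at its main probe set and -1.21 at another. Antioxidant genes and metallothioneins had a median of -0.05 over 28, and the metallothionein MT1X had 458 and 320 (-0.52).

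At their main probe sets, cell cycle genes did not pass 1.5-fold in any of 99 measured members of the mitosis, replication, p53 and BCL2 lists. These ranged from -0.35 to 0.43. CCNE2, at -0.33 there, had 115 and 69.0 (-0.73) at another probe set. Invasion genes had 1 of 63 past 1.5-fold, CTSH, which was lower. Over all measured genes 0.867% were 1.5-fold higher and 0.522% lower, so neither the cell cycle nor the invasion count stands apart. The epithelial junction gene DSP, which encodes desmoplakin, had 291 and 420 (0.53) and JUP, plakoglobin, a ratio of 0.48. Their list, epithelial junction and keratin genes, was split, with 12 of 22 above 0 and a lowest ratio of -0.32. Its median was 0.07, or -0.04 with probe sets averaged. All 4 measured markers of general epithelium, KRT18 among them, were below 0, from -0.30 to -0.18. PLAT, tissue plasminogen activator, had 0.43. EMT factors and mesenchymal genes had a median of 0.06 over 23, which averaging probe sets turned to -0.01.

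The same genes on the CL1-0 arrays give a second pair of values, from the array labelled AK4 vector over the control vector. There 12.5% of 14695 measured genes were 1.5-fold higher and 6.53% 1.5-fold lower, and at 2-fold the shares were 3.21% and 1.16%. Of the 14 higher genes, 4 were under the floor on both CL1-0 arrays. Of the other 10, 3 were above 0 in CL1-0 and 7 below at the main probe set. CMPK2 was higher in both pairs, with 8.30 and 17.7 in CL1-0. IFIT1 had 65.9 and 128 (0.96) there, close to its ratio in CL1-5, and RIGI had 32.1 and 56.6 (0.82). IFIT2 had 20.3 and 18.0 (-0.17), IFIT3 36.7 and 30.8 (-0.25) and RSAD2 32.0 and 28.3 (-0.18). The second probe set of each went the other way in CL1-0, at 0.50 (IFIT2), 0.15 (IFIT3) and 0.09 (RSAD2), so none of the 3 has a settled direction there. CCL5 had 170 and 103 (-0.72) at its main probe set, but only -0.09 and -0.12 at the others. ATF3 had 563 and 266 (-1.08), with -0.87 and -0.35 at its other probe sets. Both genes were opposite in sign to CL1-5.

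Over the 102 interferon genes measured in both pairs, 53 were above 0 in CL1-0, with a median of 0.02, 12 past 1.5-fold higher and 6 past it lower. All 13794 genes measured in both had 7749 above 0 and a median of 0.05, with 1734 past 1.5-fold higher and 900 past it lower. Of the 109 genes 1.5-fold higher with AK4 shRNA and measured in both pairs, 34 were 1.5-fold higher in CL1-0 as well and 3 were lower. Of the 66 genes 1.5-fold lower with AK4 shRNA and measured in both pairs, 7 were 1.5-fold lower in CL1-0 and 1 was higher. Over all genes measured in CL1-0, 12.5% were 1.5-fold higher and 6.53% 1.5-fold lower. The difference between the 2 pairs was not tested, since each group is 1 array.

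**Figure D5:**
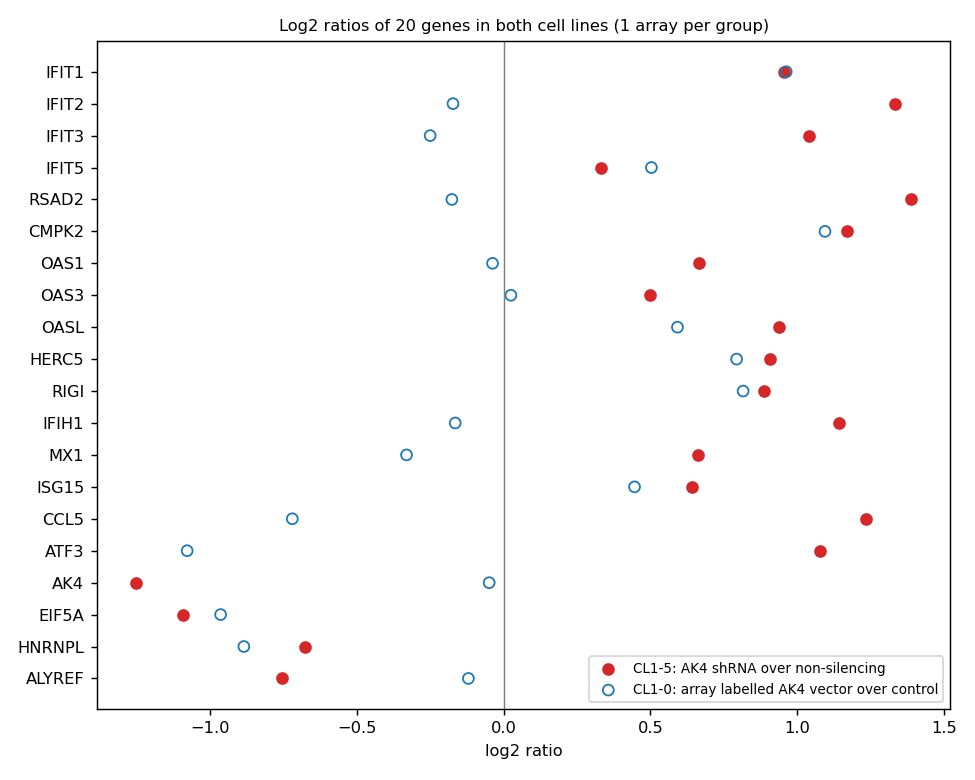
Log2 ratios (horizontal axis) of 20 genes in CL1-5, AK4 shRNA over non-silencing shRNA (filled), and in CL1-0, array labelled AK4 vector over control vector (open). At their main probe sets IFIT1, CMPK2, HERC5 and RIGI are higher in both pairs, and CCL5 and ATF3 have opposite signs. EIF5A and HNRNPL are past 1.5-fold lower in both. The other CCL5 probe sets had -0.09 and -0.12 in CL1-0.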

How the data were processed

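RNA of 4 cultures was hybridised to 1-colour Affymetrix HG-U133 Plus 2.0 arrays. The scale of the deposited values is not stated, and they were taken to be linear intensities. MAS5 was used per the submitters' processing notes, with no version or role stated. Arrays were scaled to the same trimmed mean (2% removed at each end, 62 control probe sets left out). Values under the 40th percentile of all scaled values (6.93, or 2.79 on the log2 scale) were set to that floor, and log2 was taken. A gene was read from whichever of its single-symbol probe sets was brightest on average (log2, 4 arrays). Symbols came from the platform annotation and were updated by gene identifier for 99.9%. Another 1801 probe sets list several genes and 11777 none. Genes of the lists without such a probe set are not analysed here. Deposited intensities had medians of 15.6 (non-silencing) and 15.3 (AK4 shRNA) in CL1-5.

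Each group was 1 array, so no test was run, and precision is limited by the number of arrays. Calls used 2-fold, and 1.5-fold as a second threshold. The 35 gene lists (785 genes, 721 with a probe set) and the members were chosen with earlier results of these data known. Named genes were AK4, ATF3, all past 2-fold, the 20 highest and 12 lowest measured on both arrays with no probe set moving the other way, members of the adenylate kinase and interferon lists, up to 4 genes past 1.5-fold or the 2 largest of other lists, and close relatives. CL1-0 values, cell type markers, neighbouring genes, motif genes and a few further list members were named besides, with values known. The procedure was tested on simulated data. Alternatives were other scalings, floors, probe set choices and the 1.5-fold threshold. Analyses used numpy 2.4.6, pandas 2.3.3 and statsmodels 0.14.6.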

Additional observations from a re-analysis of the deposited data

Results flagged for a closer look

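Probe sets that list no gene or several genes were left out of every comparison. Among the 6266 of these that were above the floor on at least 1 CL1-5 array, 3 had a signal at least 2-fold higher in the knockdown, and 6 were lower by as much. These are 0.0479% and 0.0958%, near the 0.0651% and 0.0857% of probe sets with a single symbol. They are listed because they carry signal outside the genes compared, and no replicate bears on them.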

How the results depend on the processing

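No paired analysis was possible because each group is 1 array, and no array could be left out for the same reason. With the mean of all probe sets of a gene, 5 genes were 2-fold higher, all among the 14, 1 was 2-fold lower and the median of the interferon lists was 0.16. In such a mean a probe set under the floor on both arrays counts as a ratio of 0. Without probe sets marked as matching several transcripts, AK4 had a log2 ratio of -0.91, EIF5A had no probe set left, and the 1 gene 2-fold lower was another, MGA at -1.15. Of the 12 genes 2-fold higher there, 10 were among the 14, and TGIF1 and GPBP1L1 were new. At 1.5-fold the counts were 133 higher and 80 lower. Under no rescaling, quantile normalization, loess, both other floors, no floor and the brightest CL1-5 probe set, 10 to 16 genes were 2-fold higher and 2 lower, and the interferon median lay from 0.21 to 0.27. The counts past 1.5-fold were 156 higher and 57 lower with quantile normalization, 154 and 53 with loess, 86 and 23 when the floor was raised to the 60th percentile and 56 and 46 when probe sets were averaged. Averaging turned the small medians of the EMT, epithelial junction, hypoxia-inducible factor and unfolded protein response lists to -0.01, -0.04, -0.01 and -0.07. The median of the integrated stress response list turned to -0.003, and that of ADP/ATP carriers and VDAC channels to -0.02. No gene past 2-fold at its main probe set changed sign, but MGA, named above, had 0.29 at its main probe set. Signals near the floor limit the precision of dim genes.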
